A study of Mus musculus with 8 samples.

Results

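Interferon-stimulated genes were followed in macrophages sorted as CD11b+ and F4/80+ cells from mouse pancreatic islets. The set was a list of 38 gene symbols of the interferon response, and all 38 were found once each in the symbol column of the deposited table, out of 48440 genes in all. Of these, 36 had enough counts to be tested for diet, against 10129 genes of the whole table; Isg15 and Iigp1 did not pass the filter on low counts and are described by level alone. Mice of one group received a high-fat diet (HFD; 45% fat, 20% protein and 35% carbohydrate, 19.67 kJ/g) and mice of the other received chow (8% fat, 21% protein and 71% carbohydrate, 10.88 kJ/g), each for 8 weeks. All mice were male wild-type C57BL/6J, 16 weeks old. There were 4 libraries per diet, HFD replicates 5 to 8 and chow replicates 1 to 4, and each library pooled extracts from 2 mice, so p-values measure the spread between pools. Library totals ran from 4288661 to 6391245 counts. Levels are CPM, counts relative to the library total after scaling by the trimmed mean of M-values. At the depth of single libraries, no count leaves room for a true level of 0.468 to 0.708 CPM (3 counts), for counting error only.

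Interferons are secreted cytokines. Type I interferons, and interferon gamma through a separate receptor, act through JAK kinases and STAT proteins. A complex that holds Stat2 and Irf9 binds the interferon-stimulated response element (ISRE), and the gamma-activated site (GAS) serves interferon gamma. The induced genes encode sensors of foreign nucleic acid, enzymes and GTPases that block microbes, and factors that feed back on the pathway. In tissue macrophages part of this programme runs at a low tonic level without infection.

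The control sequences of these genes are shown because the genes were chosen by name and function, not by sequence. RefSeq promoter windows on GRCm38.p6, each from 250 bases before to 50 bases after a transcription start, were found for 30 of the 38 genes, as 34 windows; those without were Mx1, Mx2, Oas2, Usp18, Ifi27l2a, Iigp1, Rtp4 and Zbp1. The windows were searched on both strands for an ISRE-type motif, GAAA, any 2 bases and GAAA, and for the GAS motif, TTC, any 3 bases and GAA. The ISRE-type motif was in 21 of the 34 windows, 61.8%, against 3.44% of all 32851 windows of the same length. The GAS motif was in 7 of the 34 windows, 20.6%, against 8.3% of all windows. By gene, 20 of the 30 had the ISRE-type motif and 7 had the GAS motif. The 2 motifs overlapped in the windows of Bst2 and Ifitm3. A match is a run of letters and not a measured binding site. The windows of 6 genes follow, given 5′ to 3′ on the gene's strand with matches to either motif in capitals; positions count the first transcribed base as 0. Rsad2 is shown as the gene with the smallest p, Ifit3 and Ifit3b as near-copies, Isg15 for its run of overlapping matches, Ifitm3 for the highest level per kilobase, and Gbp7 for holding both motifs.
Rsad2, chr12:26456403-26456702, minus strand: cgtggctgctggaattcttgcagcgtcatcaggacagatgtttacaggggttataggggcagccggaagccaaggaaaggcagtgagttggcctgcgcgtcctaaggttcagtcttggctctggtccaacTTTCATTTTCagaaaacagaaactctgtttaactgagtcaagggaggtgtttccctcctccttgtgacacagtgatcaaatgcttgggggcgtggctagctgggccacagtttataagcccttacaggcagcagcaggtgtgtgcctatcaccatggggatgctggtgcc
Ifit3, chr19:34583279-34583578, plus strand: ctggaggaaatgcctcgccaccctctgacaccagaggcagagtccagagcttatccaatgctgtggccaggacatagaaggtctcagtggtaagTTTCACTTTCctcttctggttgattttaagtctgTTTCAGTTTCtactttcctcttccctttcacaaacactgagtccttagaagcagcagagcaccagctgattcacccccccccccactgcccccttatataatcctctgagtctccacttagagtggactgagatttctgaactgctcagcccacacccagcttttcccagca
Ifit3b, chr19:34607707-34608006, plus strand: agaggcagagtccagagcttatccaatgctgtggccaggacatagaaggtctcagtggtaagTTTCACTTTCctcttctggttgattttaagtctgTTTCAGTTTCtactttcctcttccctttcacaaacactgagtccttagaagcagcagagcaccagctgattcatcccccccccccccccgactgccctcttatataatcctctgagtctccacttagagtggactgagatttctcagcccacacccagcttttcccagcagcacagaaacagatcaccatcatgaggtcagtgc
Isg15, chr4:156200769-156201068, minus strand: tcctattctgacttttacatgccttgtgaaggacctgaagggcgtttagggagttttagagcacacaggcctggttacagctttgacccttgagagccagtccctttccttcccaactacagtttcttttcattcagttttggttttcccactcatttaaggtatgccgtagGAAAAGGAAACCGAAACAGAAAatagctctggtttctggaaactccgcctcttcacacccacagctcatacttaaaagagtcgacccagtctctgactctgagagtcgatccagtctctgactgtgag
Ifitm3, chr7:141010695-141010994, minus strand: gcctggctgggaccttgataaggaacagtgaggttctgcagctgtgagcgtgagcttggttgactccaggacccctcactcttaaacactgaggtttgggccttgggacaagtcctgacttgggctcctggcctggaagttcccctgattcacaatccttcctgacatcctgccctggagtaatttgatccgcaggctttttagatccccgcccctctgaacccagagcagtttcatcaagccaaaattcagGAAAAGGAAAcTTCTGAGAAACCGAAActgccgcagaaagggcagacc
Gbp7, chr3:142530086-142530385, plus strand: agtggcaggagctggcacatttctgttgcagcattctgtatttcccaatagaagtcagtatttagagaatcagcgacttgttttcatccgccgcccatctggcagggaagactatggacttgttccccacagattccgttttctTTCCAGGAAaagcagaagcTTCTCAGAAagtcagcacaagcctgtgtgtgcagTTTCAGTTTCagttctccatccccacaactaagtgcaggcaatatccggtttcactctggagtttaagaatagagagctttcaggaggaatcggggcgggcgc
In Rsad2 the single match began at -120. In Isg15 3 matches began at -78, -72 and -66 and ran into each other, and in Ifit3 and Ifit3b the same pair of matches stood at -156 and -122 and at -188 and -154. In Ifitm3 the ISRE-type matches lay after the start, at 2 and 19. In Gbp7 an ISRE-type match at -53 stood near GAS matches at -106 and -87.

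**Figure D1:**
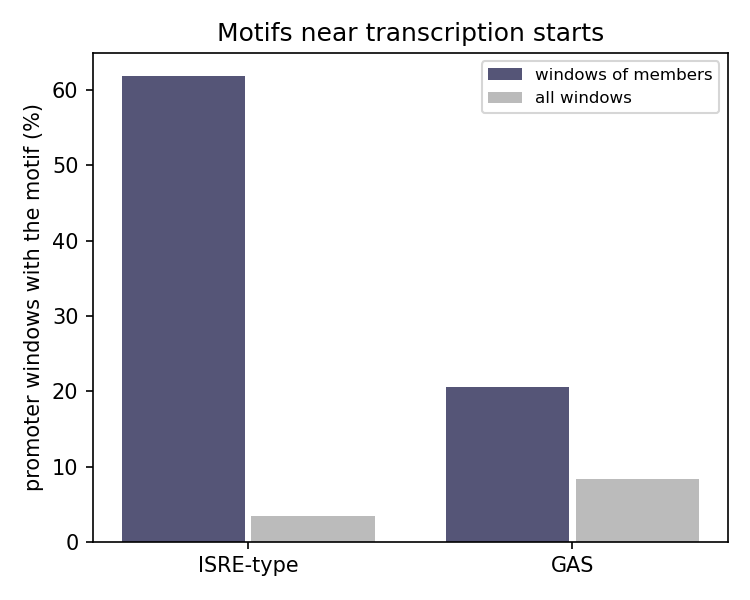
Share of promoter windows (y axis, percent) that hold the ISRE-type or the GAS motif (x axis), for the 34 windows of the interferon-stimulated genes (dark bars) and all 32851 windows (light bars). The ISRE-type motif was in 61.8% of the windows of these genes and in 3.44% of all windows.

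Whether the high-fat diet goes with another level of these transcripts was examined over the 4 pools of each diet. No interferon-stimulated gene passed the threshold of an adjusted p of 0.05: edgeR's quasi-likelihood test called 0 of 36, where it called 0% of all genes tested. At an unadjusted p under 0.05 edgeR gave 1 of the 36, Rsad2, where it gave 5.35% of all genes. DESeq2 called 0 of the 36 and 0.297% of the genes to which it gave an adjusted p, and limma-voom called 0 of the 36 and 0.00987% of all genes. Of the 36, 22 had a log2 fold change above 0 (HFD over chow) and 14 below, 61.1% above, beside 48.6% of all genes tested. With scaling by library totals only, 26 of 36 were above 0, 72.2%, beside 53.1% of all genes. In bulk libraries, fewer cells of a type and less RNA per cell cannot be told apart, and this holds for every level below. Some fibroblast transcripts, which did not pass the filter on low counts, did not overlap between diets. Col1a2 had 865 counts over the HFD libraries against 9 over the chow libraries. The part of fibroblast transcripts in these values was not tested. The median log2 fold change was 0.25 over the 36 genes and -0.02 over all genes tested, and single genes ran from -1.16 (Oasl1) to 1.93 (Rsad2). The 19 tested genes with an ISRE-type match had a median of 0.31, the 10 with a window but no match 0.09, and the 7 without a window 0.41; these medians were not tested against each other. The spread within a diet, as the pooled SD of log2(CPM + 1), had a median of 0.80 over the 36 genes and 0.89 over all genes tested.

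**Figure D2:**
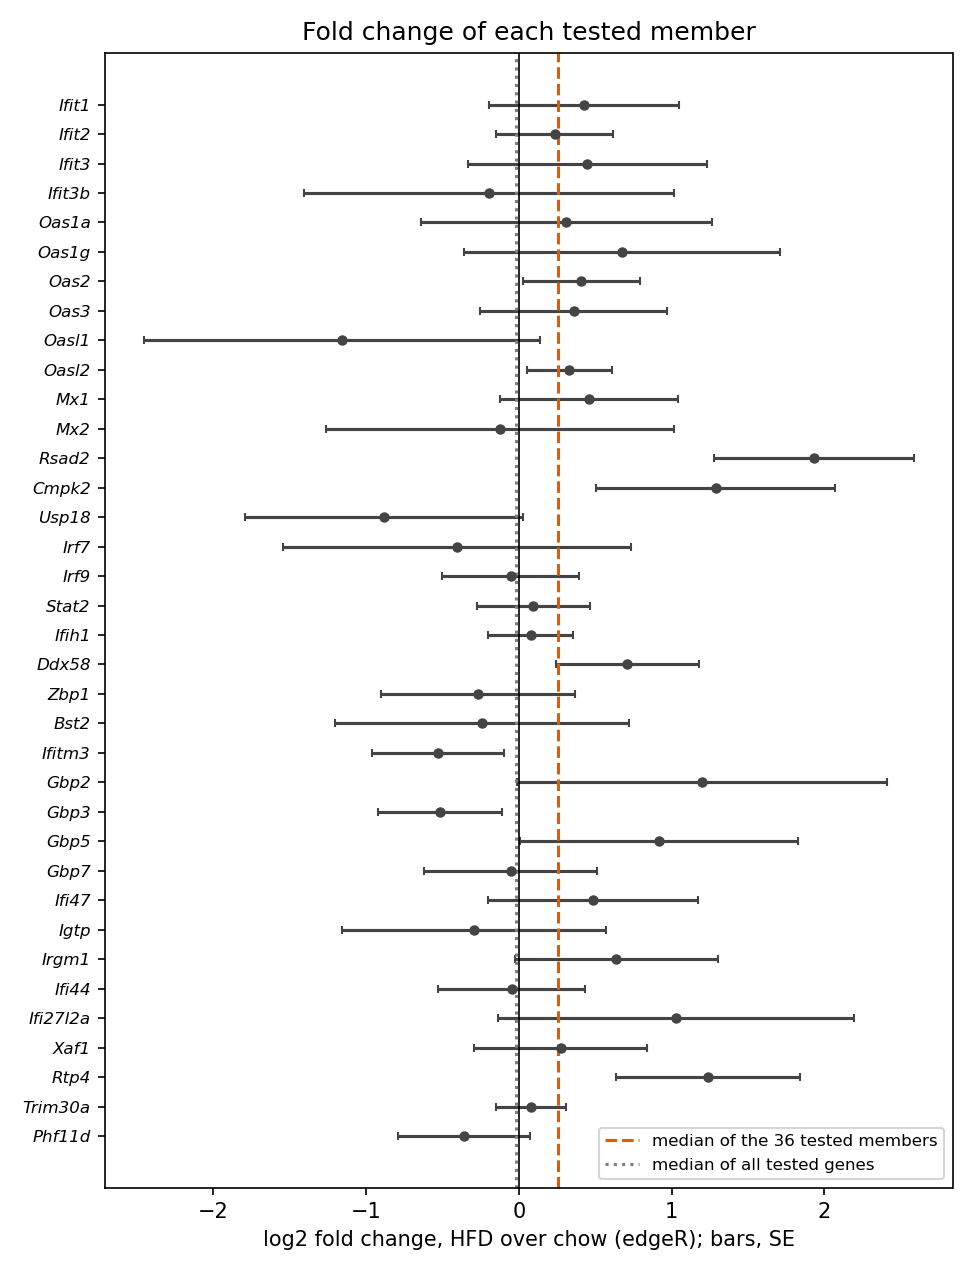
Log2 fold change of each tested gene, HFD over chow (x axis), from edgeR, with bars of 1 SE; genes run down the y axis by role. Rsad2 lies farthest right at 1.93 and Oasl1 farthest left at -1.16, and the median of the 36 genes, 0.25, stands beside -0.02 for all genes tested.

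Rsad2 encodes viperin, a radical SAM enzyme that makes a chain-terminating nucleotide, and its neighbour Cmpk2 encodes a mitochondrial nucleotide kinase. With the Mx genes, 3 of these 4 had a log2 fold change above 0 (median 0.88) and 0 passed. Rsad2 and Cmpk2 lie 12751 bases apart on chromosome 12, on opposite strands, Rsad2 at 26442746 to 26456452 and Cmpk2 at 26469204 to 26479837 on GRCm38. Rsad2 was at 93.4, 9.38, 66.4 and 90.6 CPM in HFD replicates 5 to 8, against 6.96, 28.4, 8.92 and 23.6 CPM in chow replicates 1 to 4. HFD replicates 5, 7 and 8 were above every chow library, while HFD replicate 6 was among the low chow values, so the groups overlapped. The mean was 64.9 ± 39.0 CPM in HFD and 17.0 ± 10.6 CPM in chow (SD, n = 4), a log2 fold change of 1.93 (SE 0.66) that did not pass (edgeR adjusted p = 0.75). Without HFD replicate 6 the log2 fold change was 2.29 (edgeR adjusted p = 0.83).

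Cmpk2 was at 12.1, 19.3, 39.4 and 26.3 CPM in HFD replicates 5 to 8, against 7.64, 11.4, 16.8 and 3.78 CPM in chow replicates 1 to 4. It did not follow its neighbour library by library: HFD replicate 5 was the highest for Rsad2 and the lowest HFD library for Cmpk2. Its log2 fold change was 1.29 (SE 0.78, edgeR adjusted p = 0.99). The Mx genes belong to a family of genes for dynamin-like GTPases, some of which act on viruses. Whether active Mx proteins are made in these mice was not tested. Mx1 was at 45.3 ± 33.1 CPM in HFD and 32.9 ± 19.5 CPM in chow (SD, n = 4), with 92.4 CPM in HFD replicate 5 alone above every chow library. Mx2, which the annotation lists as a polymorphic pseudogene, was at 7.54 ± 8.46 CPM in HFD and 8.22 ± 8.27 CPM in chow.

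Rtp4 encodes a chaperone of G-protein-coupled receptors that also acts on viruses, and it lies on chromosome 16 at 23520291 to 23614222. It was at 66.9, 26.7, 33.5 and 37.8 CPM in HFD replicates 5 to 8, against 24.7, 9.68, 24.9 and 10.6 CPM in chow replicates 1 to 4. Every HFD library was above every chow library, the only one of the 36 tested genes for which the groups did not overlap, where 1.68% of all genes had HFD above chow without overlap. None of the 36 lay below without overlap, where 1.71% of all genes did. The gap between the lowest HFD value and the highest chow value was small, 26.7 against 24.9 CPM. The log2 fold change was 1.24 (SE 0.60, edgeR adjusted p = 0.93). The model Gm45338 lies over Rtp4 on the same strand and holds 11.6% of its 50-base stretches and Masp1 lies over it on the other strand. Since the strand setting of the counting is not given, the counts of Rtp4 are uncertain. Genes also overlapped on the other strand were Oas2, Oasl1, Irf7, Usp18, Ifi47, Gbp2 and Trim30a, and the same limit holds for them.

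**Figure D3:**
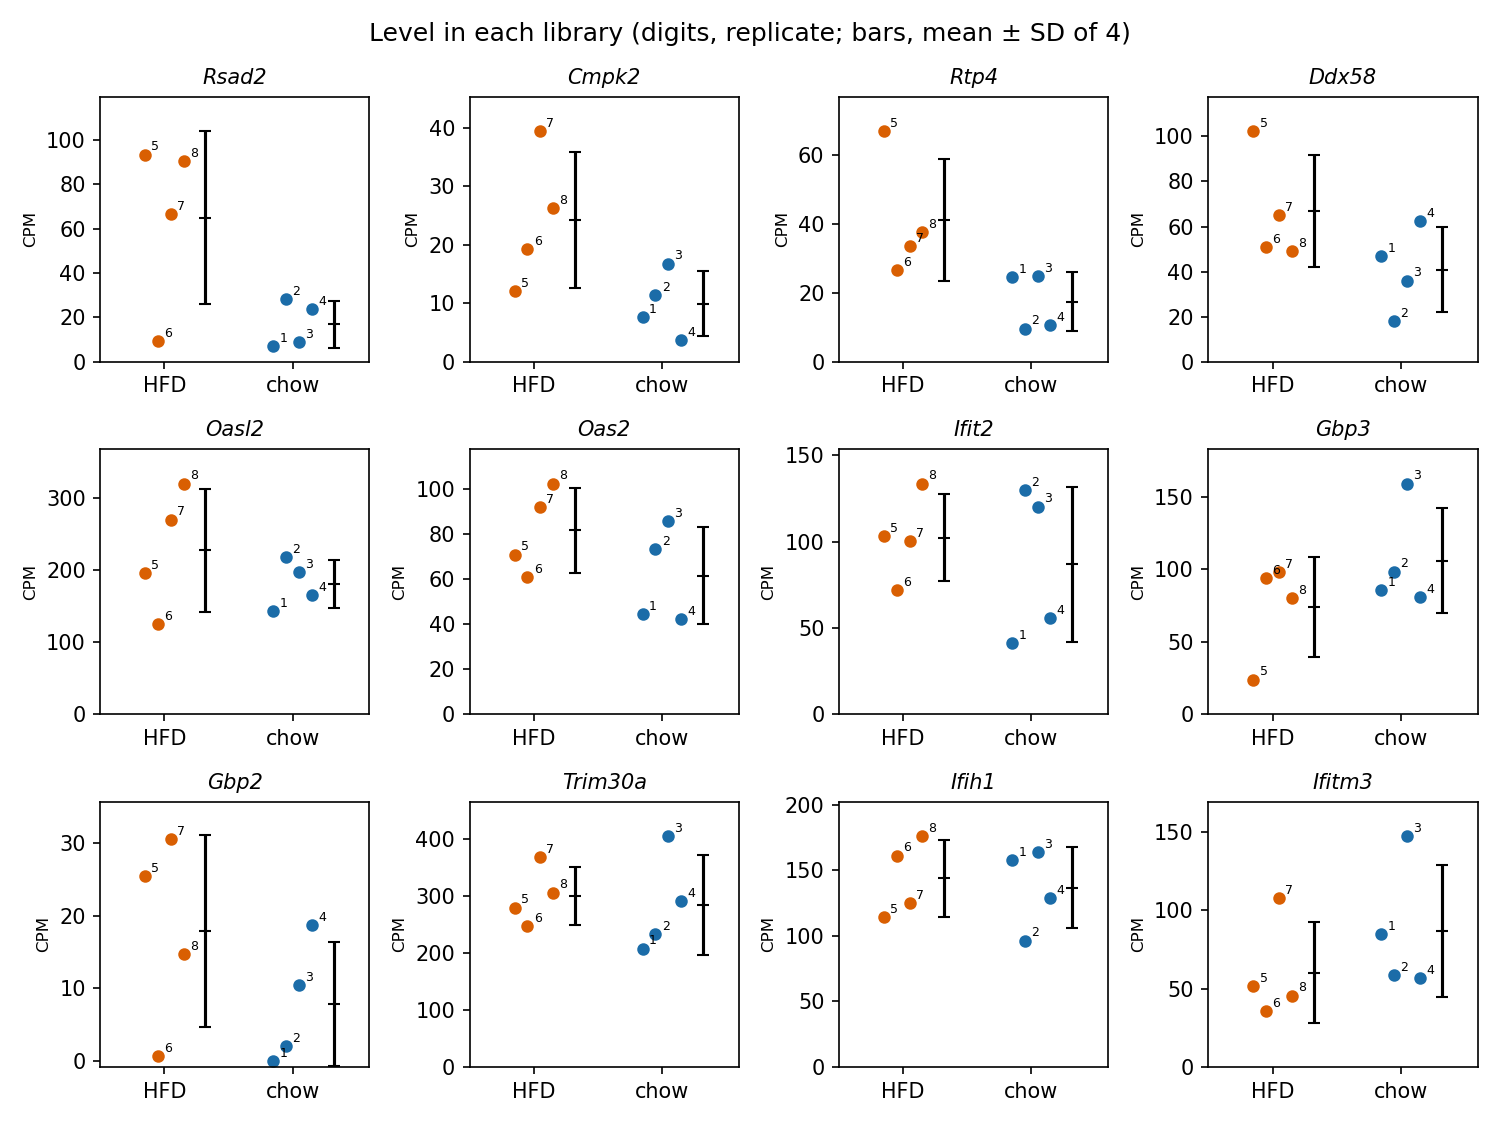
CPM (y axis) of 12 of the genes in each library, HFD left and chow right in each panel; points are libraries with their replicate numbers, and black bars are the mean ± SD of 4. Rtp4 is the panel in which the diets do not overlap, and in the Rsad2 panel HFD replicate 6, at 9.38 CPM, lies apart from the other HFD libraries.

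The OAS genes encode synthetases whose oligoadenylate product activates the nuclease RNase L, or relatives of them. Of the 6, 5 had a log2 fold change above 0 (median 0.34) and 0 passed. Oasl2 was at 195.6, 125, 270.2 and 319.9 CPM in HFD replicates 5 to 8, against 144, 218, 198 and 165 CPM in chow replicates 1 to 4. The 4 chow values lay inside the range of the HFD values, and the log2 fold change was 0.33 (SE 0.28, edgeR adjusted p = 0.99). Oas2 was at 70.9, 61.1, 92.1 and 102 CPM in HFD replicates 5 to 8, against 44.5, 73.5, 85.6 and 42.2 CPM in chow replicates 1 to 4. The diets overlapped here too, with 2 chow libraries below every HFD library and a log2 fold change of 0.41 (SE 0.38, edgeR adjusted p = 0.99). Oas3 spread widely within chow, at 57.9 ± 28.4 CPM in HFD and 45.0 ± 42.3 CPM in chow (SD, n = 4). Oasl1, whose mouse protein restrains Irf7 translation, was at 4.13 ± 2.21 CPM in HFD and 9.22 ± 8.35 CPM in chow and was at 0 in chow replicate 1.

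Oas1a and Oas1g resemble each other: 57.6% of the 50-base stretches of Oas1a transcripts also occur in Oas1g, and 45.2% of those of Oas1g in Oas1a. Their single levels are therefore uncertain. Summed, the pair was at 16.9, 14.9, 16.9 and 49.2 CPM in HFD replicates 5 to 8, against 9.21, 22.2, 8.92 and 28.6 CPM in chow replicates 1 to 4. HFD replicate 8 had the highest sum and the other HFD libraries lay within the chow range.

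The IFIT genes, clustered on chromosome 19, encode proteins that bind viral RNA ends and hold back translation. Of the 4, 3 had a log2 fold change above 0 (median 0.33) and 0 passed. Ifit2 was at 103, 71.9, 101 and 134 CPM in HFD replicates 5 to 8, against 41.3, 130, 120 and 55.9 CPM in chow replicates 1 to 4. The chow libraries divided into a low and a high pair, and the HFD libraries lay mostly between them (log2 fold change 0.24, SE 0.38, edgeR adjusted p = 0.99). Ifit1 was at 29.4 ± 11.1 CPM in HFD and 21.9 ± 10.1 CPM in chow (SD, n = 4). Ifit3 and Ifit3b share 51.2% of the 50-base stretches of Ifit3, so reads can pass between them. Taken singly, Ifit3 differed 46.2-fold between its highest and lowest library, 51.9 CPM in chow replicate 4 and 1.12 CPM in chow replicate 1, and Ifit3b 26.1-fold. Summed, the pair was at 38.3, 21.5, 48.1 and 39.0 CPM in HFD replicates 5 to 8, against 14.4, 36.4, 15.8 and 52.6 CPM in chow replicates 1 to 4, a 3.66-fold range. The sum spread less than either copy, and the diets overlapped.

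Isg15, a ubiquitin-like protein joined to other proteins during the response, was low and was detected in only part of the libraries. It was at 0, 0, 8.01 and 1.61 CPM in HFD replicates 5 to 8, against 5.17, 2.97, 0 and 0 CPM in chow replicates 1 to 4. In each diet 2 libraries had no count. Usp18, which removes Isg15 and damps the type I receptor, was at 8.07 ± 5.60 CPM in HFD and 14.9 ± 3.78 CPM in chow (SD, n = 4), a log2 fold change of -0.88 (SE 0.91, edgeR adjusted p = 0.99). On the scale of CPM per kilobase of exon, Isg15 was at 3.18 in HFD and 2.69 in chow, with rank 33 of the 38. This scale divides by all annotated exons of a gene, used or not, so ranks between genes are approximate. Ifitm3 was first, at 88.8 in HFD and 128 in chow, and Trim30a was second, at 72.9 in HFD and 68.9 in chow. Oasl2, at 35.7 in HFD and 28.4 in chow, and Gbp3, at 22.7 in HFD and 32.5 in chow, came next over all libraries, with Gbp3 above Oasl2 in chow.

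Among the transcription factors of the response, Stat2 varied 2.35-fold between its highest and lowest library, Irf9 3.65-fold and Irf7 6.21-fold. Stat2 was at 58.0, 70.7, 97.4 and 111 CPM in HFD replicates 5 to 8, against 78.0, 68.8, 118 and 50.3 CPM in chow replicates 1 to 4. Irf9 was at 63.2, 34.9, 68.3 and 79.3 CPM in HFD replicates 5 to 8, against 115, 31.4, 57.6 and 51.4 CPM in chow replicates 1 to 4. For both genes the diets overlapped through most of their range, with log2 fold changes of 0.10 (SE 0.37) for Stat2 and -0.05 (SE 0.45) for Irf9 (edgeR adjusted p = 0.99 each). Irf9 overlaps Rnf31 on the same strand. Irf7, the factor that amplifies type I interferon production, was low at 5.26 ± 3.41 CPM in HFD and 6.96 ± 3.82 CPM in chow (SD, n = 4).

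The sensors Ifih1 (MDA5) and Ddx58 (RIG-I) detect viral RNA in the cytosol, and Zbp1 detects Z-form nucleic acid and can start cell death. Ifih1 was at 114, 161, 125 and 176 CPM in HFD replicates 5 to 8, against 158, 96.5, 164 and 129 CPM in chow replicates 1 to 4. It had the smallest range of the 38 genes, 1.83-fold between its highest and lowest library, and the diets overlapped. Ddx58 was at 102, 50.9, 65.1 and 49.2 CPM in HFD replicates 5 to 8, against 47.0, 18.0, 36.1 and 62.5 CPM in chow replicates 1 to 4. Chow replicate 4 lay within the HFD range and the other 3 chow libraries lay below it (log2 fold change 0.71, SE 0.47, edgeR adjusted p = 0.99). Zbp1 was at 23.2 ± 8.89 CPM in HFD and 28.0 ± 16.1 CPM in chow (SD, n = 4).

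Bst2 (tetherin) holds budding virus at the cell surface and Ifitm3 blocks viral fusion in endosomes. Ifitm3 was at 51.8, 35.6, 108 and 45.6 CPM in HFD replicates 5 to 8, against 84.7, 58.7, 147 and 56.9 CPM in chow replicates 1 to 4. Of the HFD libraries, 3 lay below every chow library and HFD replicate 7 lay among them (log2 fold change -0.53, SE 0.44, edgeR adjusted p = 0.99). Bst2 was at 9.58 ± 5.33 CPM in HFD and 11.3 ± 9.69 CPM in chow (SD, n = 4).

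The guanylate-binding proteins (GBP) and immunity-related GTPases (IRG) are strongly induced by interferon gamma and attack the membranes around intracellular microbes. Of 4 GBP genes, 2 lay above 0 and 2 below on the log2 scale (median 0.43), and of 3 tested IRG genes 2 lay above (median 0.48); 0 of either passed. Gbp3 was at 24.0, 94.1, 98.4 and 80.1 CPM in HFD replicates 5 to 8, against 85.6, 98.5, 159 and 81.2 CPM in chow replicates 1 to 4. HFD replicate 5 was far below the rest, and the other HFD libraries overlapped chow (log2 fold change -0.52, SE 0.41, edgeR adjusted p = 0.99). Gbp2 was at 25.4, 0.695, 30.6 and 14.7 CPM in HFD replicates 5 to 8, against 0, 2.03, 10.4 and 18.6 CPM in chow replicates 1 to 4. Gbp5, whose protein promotes inflammasome assembly, was at 10.3, 22.9, 40.0 and 2.01 CPM in HFD replicates 5 to 8, against 10.1, 4.68, 13.1 and 12.0 CPM in chow replicates 1 to 4. The lowest HFD library was replicate 6 for Gbp2, replicate 5 for Gbp3, and replicate 8 for both Gbp5 and Gbp7. Log2 fold changes were 1.20 (SE 1.21) for Gbp2 and 0.92 (SE 0.91) for Gbp5 (edgeR adjusted p = 0.99 each). Gbp7, overlapped on the same strand by the model Gm43802, was at 43.9, 53.8, 45.5 and 10.6 CPM in HFD replicates 5 to 8, against 53.7, 18.0, 30.5 and 57.8 CPM in chow replicates 1 to 4.

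Irgm1, an IRG that regulates its relatives, was at 32.4 ± 10.5 CPM in HFD and 20.8 ± 13.8 CPM in chow (SD, n = 4). Ifi47 was at 45.5 ± 23.3 CPM in HFD and 32.5 ± 20.4 CPM in chow, and Igtp was at 14.9 ± 7.33 CPM in HFD and 18.2 ± 15.3 CPM in chow. Iigp1 was at 5.16, 0, 33.5 and 0.803 CPM in HFD replicates 5 to 8, against 0, 3.75, 0 and 0.236 CPM in chow replicates 1 to 4. A level of Iigp1 above 10 CPM was thus seen in HFD replicate 7 alone. Igtp overlaps Irgm2 on the same strand and Ifi47 overlaps Olfr56, so their counts are uncertain.

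Of the 6 remaining induced genes, Rtp4 among them, 4 had a log2 fold change above 0 (median 0.18) and 0 passed. Trim30a, which in mouse restrains Toll-like receptor signalling, was at 279, 247, 367 and 305 CPM in HFD replicates 5 to 8, against 207, 232, 404 and 290.0 CPM in chow replicates 1 to 4. Phf11d was at 25.0, 59.2, 92.7 and 54.4 CPM in HFD replicates 5 to 8, against 64.0, 101, 47.7 and 84.0 CPM in chow replicates 1 to 4. Both overlapped between diets, with log2 fold changes of 0.08 (SE 0.23) for Trim30a and -0.36 (SE 0.43) for Phf11d (edgeR adjusted p = 0.99 each). Xaf1, which binds the apoptosis inhibitor XIAP, was at 46.4 ± 24.8 CPM in HFD and 38.3 ± 22.9 CPM in chow (SD, n = 4). Ifi44 was at 42.7 ± 14.5 CPM in HFD and 44.1 ± 17.7 CPM in chow. Ifi27l2a was at 9.99 ± 7.68 CPM in HFD and 4.89 ± 3.84 CPM in chow.

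**Figure D4:**
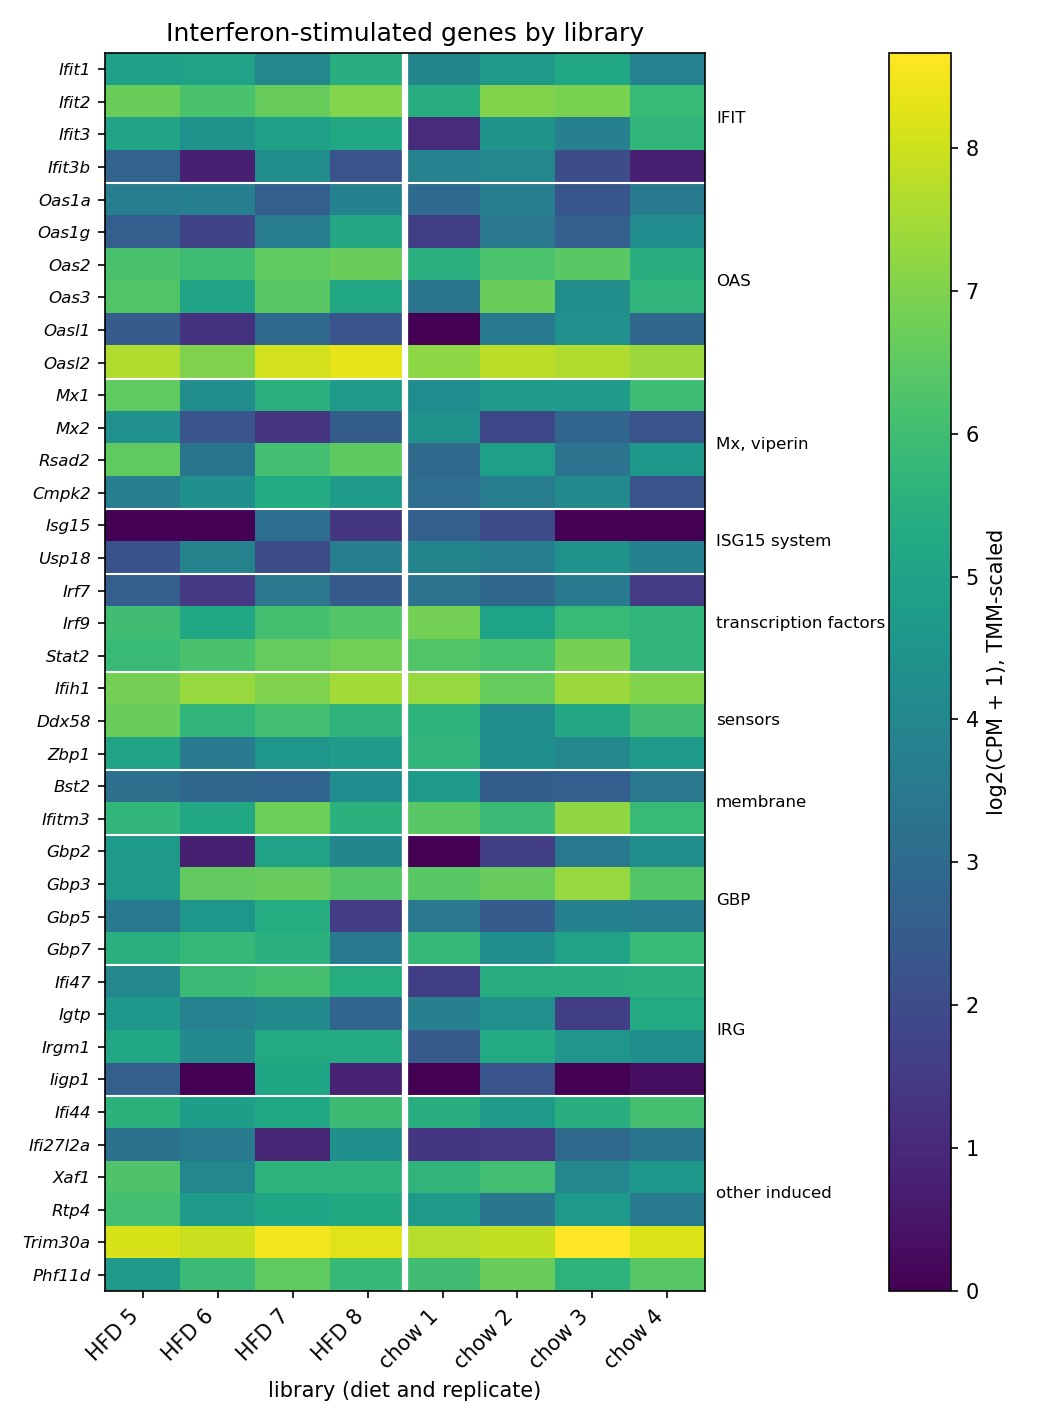
Log2(CPM + 1) (colour) of all 38 genes (rows, by role) in the 8 libraries (columns, HFD left of the vertical white line and chow right). Trim30a and Oasl2 are bright in every library, while Isg15 is at 0 in 2 libraries of each diet and Iigp1 at 0 in 1 HFD and 2 chow libraries.

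The libraries of each diet differed from each other. The mean log2(CPM + 1) over the 38 genes was 4.80, 4.20, 5.05 and 4.82 in HFD replicates 5 to 8, against 4.12, 4.54, 4.48 and 4.53 in chow replicates 1 to 4. HFD replicates 5, 7 and 8 lay above every chow library, and HFD replicate 6 lay below 3 of the 4. Among the HFD libraries, replicate 6 was the lowest for 21 of the 38 genes and the highest for 2. Among the chow libraries, replicate 1 was the lowest for 13 genes and replicate 2 for 10. Without HFD replicate 6 the median log2 fold change was 0.34 with 28 of 38 tested genes above 0, and edgeR still called 0. Over all genes tested in that setting the median was -0.05, with 46.9% above 0. HFD replicate 6 was singled out here for its low values in these same genes, so a higher median without it follows from that choice. The low values of HFD replicate 6 were not shared by every role: its mean log2(CPM + 1) was the lowest of the HFD libraries for the IFIT, OAS, Mx and viperin, transcription factor, sensor, membrane, IRG and remaining groups, but not for the GBP genes or the ISG15 system. For the Mx and viperin group the mean was 5.30, 3.57, 4.55 and 4.65 in HFD replicates 5 to 8, against 3.69, 3.79, 3.76 and 3.78 in chow replicates 1 to 4. HFD replicate 6 was below, and the other 3 HFD libraries were above, all 4 chow libraries.

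**Figure D5:**
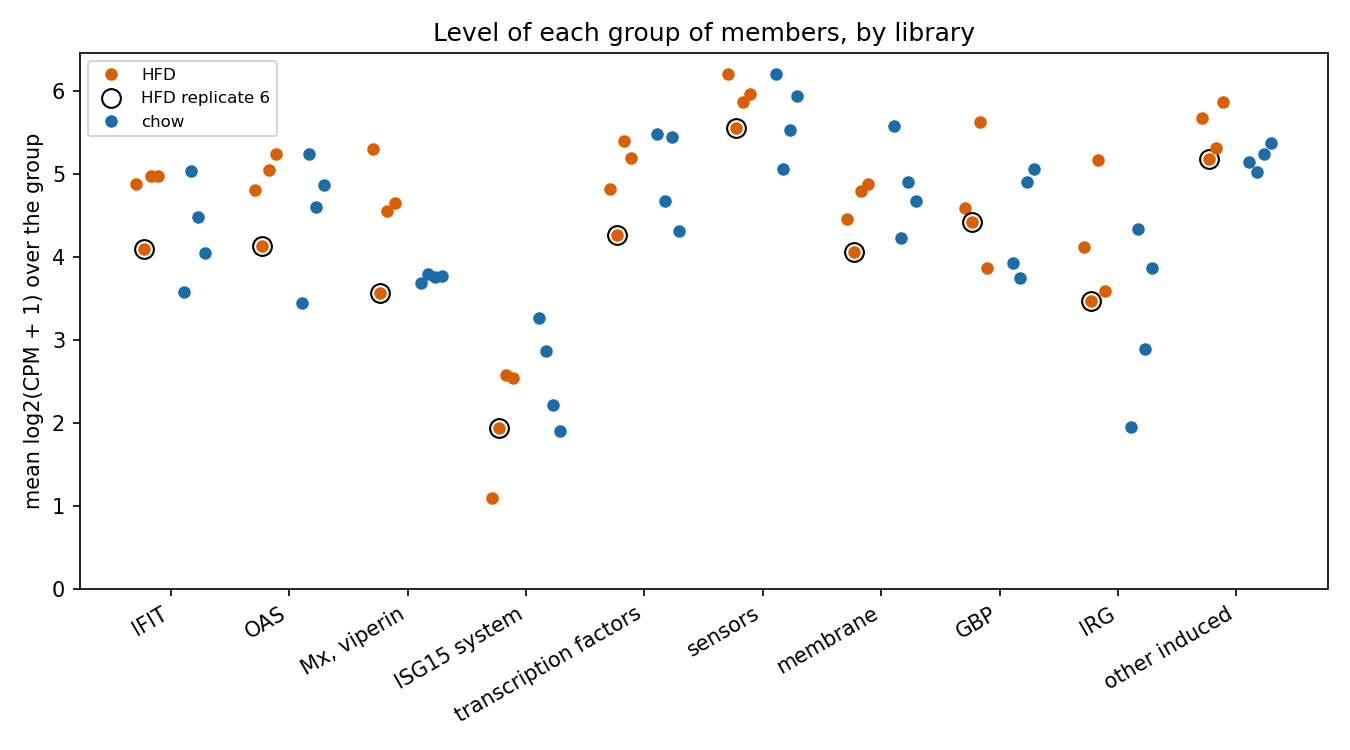
Mean log2(CPM + 1) of each role group (x axis) in each library (points; HFD left of chow within a group, HFD replicate 6 ringed). In the Mx and viperin group the ringed library, at 3.57, lies under all chow libraries and the other HFD libraries, from 4.55 to 5.30, lie over them.

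Genes upstream of the response were measured beside it. Of 13 interferon genes 11 had no count in any library, and the other two, Ifnb1 and Ifnk, had 2 and 6 counts over the HFD libraries, against 0 and 2 over the chow libraries. Interferons were thus at or near the limit of detection in both diets. All 6 receptor genes were tested, 0 passed, and all 6 had log2 fold changes below 0, with a median of -0.26. The type I receptor chains Ifnar1 and Ifnar2 were at 276 ± 59.6 and 229 ± 47.7 CPM in HFD, against 335 ± 82.1 and 271 ± 79.8 CPM in chow (SD, n = 4). For the interferon lambda receptor chain Ifnlr1 the log2 fold change was -1.16 (SE 0.87), and for the shared chain Il10rb it was -0.55 (SE 0.37; edgeR adjusted p = 0.99 each).

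Of the JAK-STAT and IRF genes, 15 of 16 were tested, 0 passed in either direction, and 11 had log2 fold changes below 0 (median -0.25). Among the genes with the smallest p were Pias1, an inhibitor of STAT signalling, with -0.58 (SE 0.36), Irf8, a lineage factor of macrophages, with -0.51 (SE 0.36) and the phosphatase gene Ptpn6 with -0.64 (SE 0.54), all on the log2 scale with the diets overlapping. Of the nucleic acid sensing genes 19 were tested and 0 passed, 12 above 0 and 7 below. The kinase gene Tbk1 had -0.65 (SE 0.32), the receptor genes Tlr9 and Tlr7 had -0.58 (SE 0.31) and 0.42 (SE 0.25), and Irak4 had 0.54 (SE 0.42), all on the log2 scale.

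A further list of 79 interferon-induced genes had 70 tested, 0 called in either direction, 40 above 0 and 30 below, and a median log2 fold change of 0.11. The chemokine gene Cxcl9, which is induced by interferon gamma and draws T cells, had the smallest p. It was at 61.0, 24.0, 141 and 39.2 CPM in HFD replicates 5 to 8, against 19.5, 7.49, 9.74 and 0.944 CPM in chow replicates 1 to 4. Every HFD library was above every chow library, with a log2 fold change of 2.81 (SE 0.74, edgeR adjusted p = 0.58). Of the 70 tested genes of the list, 1 lay above without overlap, where 1.68% of all genes tested did. A single gene of the 70 lay below without overlap, where 1.71% of all genes tested did. That gene, Phf11b, named after its values were seen, was at 34.0 to 54.2 CPM in HFD and 57.4 to 80.1 CPM in chow. Its log2 fold change was -0.59 (SE 0.39, edgeR adjusted p = 0.99). Rnf213, a giant ubiquitin ligase, was at 581 ± 152 CPM in HFD and 393 ± 44.1 CPM in chow (SD, n = 4; edgeR adjusted p = 0.75). Parp12, an ADP-ribosyltransferase, was at 103 ± 22.6 CPM in HFD and 57.8 ± 26.5 CPM in chow (edgeR adjusted p = 0.89). Gbp8, a further guanylate-binding protein gene, was at 109.6 ± 37.5 CPM in HFD and 197 ± 75.9 CPM in chow (edgeR adjusted p = 0.78).

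Markers of the sorted cells and of possible neighbours were summed per library. The 11 macrophage genes summed to 5730 to 6913 CPM in HFD and 5880 to 7731 CPM in chow. Apart from Cd4, markers of cells that make interferon gamma were absent or low: 5 of 8 natural killer cell markers and 6 of 10 T cell markers had no count in any library. The natural killer sums were at most 4.42 CPM in HFD and 1.72 CPM in chow. The T cell sums of 9.84 to 43.0 CPM in HFD and 10.8 to 48.3 CPM in chow were nearly all Cd4, which was well detected. Cd3e was at 0 in every library. The plasmacytoid dendritic cell list, led by Siglech, summed to 103 to 221 CPM in HFD and 160 to 259 CPM in chow, with Ly6d and Pacsin1 at 0 throughout. Siglech alone was at 91.0 to 219 CPM in HFD and 160 to 212 CPM in chow. Klk1 of this list was at 22.6 and 54.8 CPM in chow replicates 3 and 4 and at 20.0 CPM in HFD replicate 7. It was at most 8.54 CPM elsewhere. The acinar sums of those libraries were the highest, at 1390, 3071 and 1474 CPM. All 7 neutrophil markers were at 0. The 7 classical monocyte genes summed to 691 to 1200 CPM in HFD and 656 to 1083 CPM in chow, most of it Ccr2, at 688 to 1060 CPM in HFD and 632 to 1072 CPM in chow, while the defining marker Ly6c2, with Plac8, was at 0 in every library. The 7 conventional dendritic cell genes summed to 17.3 to 95.7 CPM in HFD and 45.1 to 141.0 CPM in chow. Of these, Clec9a averaged 24.6 CPM in HFD and 71.6 CPM in chow (edgeR adjusted p = 0.75). Its HFD values lay below chow without overlap, as did those of 1.71% of all genes tested. Itgae also had a lower mean in HFD, while Zbtb46, Cd209a, Xcr1 and Flt3 had higher means in HFD, all with the diets overlapping. Ccr7 had no count in any library. The 7 islet endocrine genes summed to 933, 1452, 878 and 1758 CPM in HFD replicates 5 to 8, against 436, 1729, 1053 and 1036 CPM in chow replicates 1 to 4. The stellate cell and fibroblast list summed to 341, 225, 213 and 99.6 CPM in HFD replicates 5 to 8, against 0.225, 79.0, 132 and 88.3 CPM in chow replicates 1 to 4. The sums of HFD replicate 8 and chow replicates 2 to 4 were nearly all Rgs5, a pericyte gene, at 25.1 to 97.0 CPM in HFD and 0 to 128 CPM in chow. The fibroblast genes Col1a1, Col1a2 and Dcn lay above chow without overlap, with 749, 865 and 135 counts over the HFD libraries, against 0, 9 and 0 counts over the chow libraries. In HFD replicate 8, though, they were at 0.201, 1.41 and 0.201 CPM. These genes did not pass the filter on low counts, so the shares given for tested genes do not cover them. Col3a1, Lum, Pdgfra and Pdgfrb also had higher means in HFD, with the diets overlapping. The acinar list summed to 33.7 to 1474 CPM in HFD and to 0.225 to 3071 CPM in chow. The part of these transcripts in the levels above was not tested.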

How the data were processed

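RNA from CD11b+ F4/80+ islet macrophages was amplified from 500 pg per library with the Ovation RNA-Seq System V2, per the labels' protocols. FastQC, Trim Galore and STAR with the GRCm38 genome were used, per the submitters' processing notes; no source used here names the counting program, annotation release or strand setting. Expected counts per Ensembl gene are what the authors deposited, not scaled between libraries, with 7.66% to 8.32% of the values above 0 not whole; they were rounded to whole numbers. No molecular identifiers are stated, so counting limits cover counting error only.

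Genes were tested with edgeR (version 4.0.16) in R (version 4.3.3): TMM scaling, filterByExpr with diet, a robust quasi-likelihood fit on diet alone, two-sided, with Benjamini-Hochberg adjustment across all tested genes. The steps were tested on simulated data with fold changes larger than any in this set and the same dispersion for every gene. The power to find smaller changes at the spread of these libraries was not measured. Alternatives were DESeq2 (version 1.42.0), limma's voom with quality weights (version 3.58.1), 3 other scalings, other filters, a fit that was not robust, values not rounded and each library left out in turn.

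The genes and lists were chosen with earlier results of these data known. Values per library are given for the 10 genes with the smallest p, the 6 others with the highest mean CPM, and any whose diets did not overlap, and each pathway list gives up to 4 genes with the smallest p, of which 1 is not reported here; others given so, such as Isg15, Iigp1, Gbp7 and the summed pairs, were chosen after their values were seen. Positions and exon lengths came from GENCODE M21 on GRCm38. Of the list symbols, Sting1 was not found under that name, and its older name Tmem173 was. Mb21d1 and Cgas name the same gene, counted once.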

Additional observations from a re-analysis of the deposited data

Results flagged for a closer look

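Of 76 sets of 4 libraries, 38 genes in each diet, 5 held a library far from the other 3 of its diet. For independent, normally distributed values chance gives about 1 in 20. These were CPM values, some of them 0, from genes that share libraries, so that rate need not hold here. Oas1a was at 5.06 CPM in HFD replicate 7, where the nearest HFD library was at 11.9 CPM; its counts are uncertain beside Oas1g. Irgm1 was at 16.8 CPM in HFD replicate 6, where the nearest HFD library was at 35.4 CPM. Iigp1 was at 33.5 CPM in HFD replicate 7, against 5.16 CPM in the nearest HFD library, and at 3.75 CPM in chow replicate 2, against 0.236 CPM in the nearest chow library. Ifi47 was at 2.02 CPM in chow replicate 1, where the nearest chow library was at 41.5 CPM.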

How the results depend on the processing

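Over the 17 alternatives the count of interferon-stimulated genes called stayed at 0, with 1 or 2 at an unadjusted p under 0.05; without a filter edgeR called 45 of 17969 genes, and without HFD replicate 8 it called 11 of 10711, none of them in this set. The median log2 fold change of the set stayed above 0, from 0.15 with limma-voom to 0.40 without chow replicate 2. The number above 0 ran from 21 to 28. Without chow replicate 1 it was 27 of 37, 73%, beside 49.8% of all genes tested. Without HFD replicate 6 it was 28 of 38, 73.7%, beside 46.9% of all genes tested. Of the 36 genes, 21 kept the sign of their log2 fold change under every alternative, 15 above 0 and 6 below, and 15 had the other sign in at least 1. Rsad2 ran from 1.33 to 2.30 (adjusted p 0.14 to 0.998), Rtp4 from 0.91 to 1.46 (0.45 to 0.998) and Cmpk2 from 0.95 to 1.66 (0.58 to 0.999). No paired analysis was possible because the diets share no replicate number. Low counts limit Isg15, Iigp1 and the interferon genes.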
